A study of Homo sapiens with 12 samples.

Results

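Eph receptors and ephrin B2 were examined in HA22T and PLC5 cells with and without knockdown of GALNT1. The 10 genes EPHA1, EPHA2, EPHA3, EPHA4, EPHB1, EPHB2, EPHB3, EPHB4, EPHB6 and EFNB2 were found through the RefSeq transcript accession of each probe, and they account for 14 of 50599 probes and 10 of 20503 named genes on the array. The set was chosen by the fall of the EPHB4 intensity in HA22T after GALNT1 knockdown, so the HA22T knockdown values are given below as a description, without a test. Both lines were established from human hepatocellular carcinoma and were grown in DMEM with serum and antibiotics. In each line one group received non-targeting siRNA (siControl) and one received a SMARTpool of GALNT1 siRNA (siGALNT1), both at 10 nM with Lipofectamine RNAiMAX, and total RNA was taken after 48 h. GALNT1 encodes a GalNAc-transferase that starts mucin-type O-glycosylation. The 4 groups have 3 one-color arrays each, and each array measures the RNA of the whole culture, in which fewer cells with a transcript and less transcript per cell cannot be told apart. Only 1 siRNA pool was used, so loss of GALNT1 and any other effect of that pool cannot be told apart either.

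Eph receptors are receptor tyrosine kinases whose ligands, the ephrins, sit in the membrane of neighboring cells. A-type ephrins are held by a lipid anchor and B-type ephrins span the membrane, and receptor and ligand both signal into their own cell upon contact. The system controls repulsion, adhesion and boundaries between cells, and EPHB4 with its ligand ephrin B2 is known for separating veins from arteries.

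Values are log2 intensities minus that array's 75th percentile, so 0 is the level of that percentile and a difference of 1 is a 2-fold change. Because probes differ in brightness, a value is compared only with values of the same probe. Of the 58717 spots of an array, 36679 to 48873 exceeded background clearly, 489 to 3633 were flagged as non-uniform and left out, and 0 were saturated. GALNT1 itself, read from its brighter probe, was 0.97 ± 0.30 with siControl and -4.13 ± 1.26 with siGALNT1 (SD, n = 3) in HA22T, and 0.62 ± 0.25 and -3.10 ± 1.04 (SD, n = 3) in PLC5, without overlap in either line. The 6 HA22T arrays share slide 1 with the replicate 1 pair of PLC5, while the other 4 PLC5 arrays lie on slide 2. Of 8 hepatocyte markers, 8 were detected on at least 3 arrays of PLC5 and 6 in HA22T, where TTR and TF were not. All 8 passed as lower in HA22T than in PLC5 at an adjusted p below 0.05 in limma, and the 6 detected in both lines differed by -9.77 (APOB) to -3.08 (HNF4A) on the log2 scale. Their part in the line differences below was not tested. Of 4 epithelial markers, the keratins KRT8 and KRT18 were well above background on all arrays of both lines, whereas CDH1 was so on 3 of 6 arrays in HA22T and 2 in PLC5, and EPCAM on 3 and 1. The 4 mesenchymal markers were detected in both lines and went in both directions, with VIM, CDH2 and ZEB1 higher in HA22T by 5.51, 1.76 and 1.76 on the log2 scale and FN1 different by -3.95, all at an adjusted p below 0.05. Of 6 endothelial markers, 4 were detected in each line, and KDR and TEK were not detected in either. All 3 immune markers searched (PTPRC, CD14 and CD68) were detected in both lines. Of 3 stromal markers, ACTA2 was well above background on 4 HA22T arrays and 0 PLC5 arrays. PDGFRB was so on 1 and 2 arrays, and COL1A1 had no probe with a value in every group. Each marker was read from 1 probe, so detection of a marker does not by itself show a cell type.

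The members divided into 6 genes that could be compared, 1 that was flagged on most HA22T arrays and 3 that were close to background. EPHA2, EPHA4, EPHB2, EPHB3, EPHB4 and EFNB2 had a value in every group and exceeded background clearly on 3 or more of the 6 arrays in each line. EPHA1 was left without a value in HA22T siGALNT1. EPHA3, EPHB1 and EPHB6 were well above background on at most 2 of the 6 arrays of a line.

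EPHB4, the B-type receptor that binds ephrin B2, is the gene that the choice of members rests on. Its promoter is shown because it is the member with the largest knockdown difference in HA22T. The 250 bases before its start, from RefSeq in GRCh38.p14 (chr7:100827524-100827773, minus strand), are printed 5′ to 3′, and capitals mark matches to GGGCGG (the GC box) or CCAAT on either strand.
EPHB4: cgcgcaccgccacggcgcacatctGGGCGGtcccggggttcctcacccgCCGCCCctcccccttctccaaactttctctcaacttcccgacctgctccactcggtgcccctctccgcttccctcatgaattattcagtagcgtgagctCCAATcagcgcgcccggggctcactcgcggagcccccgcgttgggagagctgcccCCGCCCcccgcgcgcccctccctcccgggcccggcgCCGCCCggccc
The window holds 4 GC boxes, 1 CCAAT and 29 CpG dinucleotides, against a median of 11 CpG over 35116 RefSeq promoter windows of the same length. TATAAA and TGANTCA, the site of AP-1 factors, were searched on both strands too, and neither was found in it. Over all windows GGGCGG is present in 42.6%, CCAAT in 32.0%, TATAAA in 10.7% and TGANTCA in 6.57%. A match is a description of the letters and not of a bound factor.

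In HA22T cells treated with siControl, the brighter EPHB4 probe read -0.05, 0.29 and 0.96. With siGALNT1 it read -1.09, -0.95 and -1.02. The 3 knockdown arrays lie close together and below every control array, whereas the control arrays are spread, with replicate 3 the highest. The difference was -1.42 on the log2 scale (SE 0.28), or 2.67-fold lower. Without control replicate 3 the difference was -1.14, the smallest of the values with 1 array left out. Of the 36327 probes counted in HA22T, 0.138% fell as far, and the median difference of those counted was -0.061. As EPHB4 was chosen by this fall, that share describes the choice and is not a test. The dimmer EPHB4 probe read -1.76, -1.89 and -1.29 with siControl and -2.86, -2.74 and -2.75 with siGALNT1. It shows the same separation, with a difference of -1.14 (SE 0.23).

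In PLC5 cells, a contrast that the choice of members did not use, the brighter EPHB4 probe read 0.28, 0.22 and 0.01 with siControl. It read -0.13, -0.26 and -0.51 with siGALNT1. All 3 knockdown arrays lie below all 3 control arrays, a pattern that 3.45% of the 38070 probes counted in PLC5 share. The difference was -0.47 on the log2 scale (SE 0.28, 95% interval -1.08 to 0.13), which is 1.39-fold lower. It did not pass the test, with an adjusted p of 1.00 in limma and p = 0.1 in a two-sided exact permutation test, the smallest value that 3 against 3 arrays can give. After adjustment GALNT1 itself did not pass in PLC5 either. For EPHB4 the replicate 1 pair, which shares slide 1 with HA22T, differed by -0.41 and the arrays of slide 2 by -0.50. The dimmer probe read -1.62, -1.86 and -1.69 with siControl and -2.09, -1.94 and -2.13 with siGALNT1. Its groups do not overlap either, and its difference of -0.33 (SE 0.23, 95% interval -0.84 to 0.18) had an adjusted p of 1.00. Both probes measure the same RNA and are not independent of each other. The knockdown difference was 0.95 larger in size in HA22T than in PLC5 on the log2 scale of the brighter probe, a comparison that contains the arrays by which EPHB4 was chosen and was not tested.

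**Figure D1:**
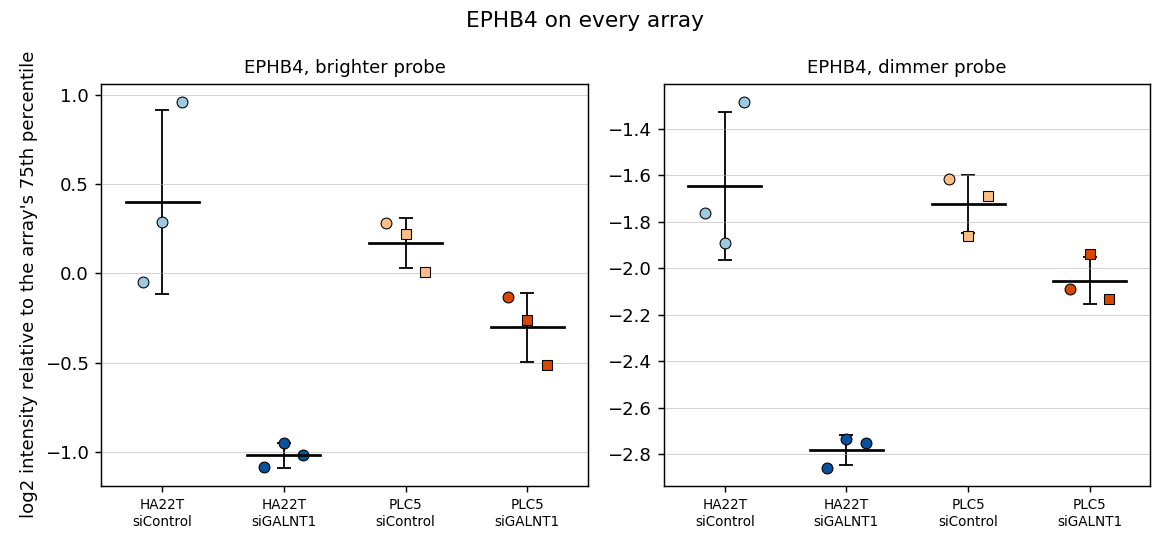
EPHB4 on each of the 12 arrays, as log2 intensity minus that array's 75th percentile, for the brighter probe (left) and the dimmer probe (right). Circles are arrays of slide 1 and squares of slide 2, the horizontal line is the group mean and the bar its SD (n = 3). In both probes the 3 siGALNT1 arrays lie below the 3 siControl arrays of the same line, with the wider gap in HA22T.

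Ordered by its mean, EPHB4 was highest in HA22T siControl (0.40 ± 0.51), followed by PLC5 siControl (0.17 ± 0.14), PLC5 siGALNT1 (-0.30 ± 0.19) and HA22T siGALNT1 (-1.02 ± 0.07; SD, n = 3 each). The first pair of neighbors overlaps. Averaged over both siRNAs, HA22T minus PLC5 was -0.24 (SE 0.19, 95% interval -0.67 to 0.18), with an adjusted p of 0.361 in limma. This average contains the HA22T arrays by which EPHB4 was chosen, and the 2 HA22T groups differ in spread, so no conclusion is drawn from it. The sign of the line difference depended on the siRNA, as it was 0.23 among siControl arrays and -0.72 among siGALNT1 arrays. For the dimmer probe these values were 0.077 and -0.73. Both rest on HA22T arrays by which EPHB4 was chosen, so they restate its fall in that line and are given without a test. On slide 1 alone the brighter probe differed by -0.38 between the lines.

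Among the 5 genes whose values followed EPHB4 most closely over the 12 arrays were SLC2A11, a sugar transporter (Pearson r = 0.879), HAGH, a glyoxalase (r = 0.861), GALNT1 itself (r = 0.837) and RTN4R, the Nogo receptor (r = 0.810), out of 14938 genes compared. Likeness to EPHB4, itself lower with siGALNT1, favors genes that are lower too, so their differences describe that choice, with SLC2A11 at -1.51 in HA22T and -1.26 in PLC5 and HAGH at -1.95 and -1.55 on the log2 scale. The arrays share their siRNA within each group, so these coefficients describe a common pattern over 4 groups. The 2 EPHB4 probes correlated with r = 0.953 (Spearman's rho 0.902) over the 12 arrays, r = 0.979 within HA22T and 0.797 within PLC5.

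Of the 6 comparable members, EPHB4 had the largest knockdown difference in HA22T (-1.42) and EFNB2 the largest in PLC5 (-0.64). The median difference of the 6 was -0.096 in HA22T and -0.18 in PLC5, against -0.061 and 0.012 over all counted probes. In PLC5, 0 of the 6 members passed an adjusted p of 0.05 in limma and 0 passed at an unadjusted p of 0.05. Over all counted probes of PLC5 the share was 0% (0 of 38070) after adjustment and 1.33% (508) before it, and the plain test listed in the methods gave 1.87% (712) before adjustment and 0 after it. GALNT1 itself, at -3.72 in PLC5 (unadjusted p = 7.35e-05 in limma), was among the probes that did not pass after adjustment. A count of 0 in PLC5 therefore does not show that a gene did not respond.

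EPHA2, an A-type receptor often found at high levels in epithelial tumors, had the largest line difference of the 6. The 250 bases before its start, in GRCh38.p14 (chr1:16156070-16156319, minus strand), are shown with those of EPHB2 (chr1:22710588-22710837, plus strand), because these are the members whose line difference passed the test. Capitals mark the GC box on either strand.
EPHA2: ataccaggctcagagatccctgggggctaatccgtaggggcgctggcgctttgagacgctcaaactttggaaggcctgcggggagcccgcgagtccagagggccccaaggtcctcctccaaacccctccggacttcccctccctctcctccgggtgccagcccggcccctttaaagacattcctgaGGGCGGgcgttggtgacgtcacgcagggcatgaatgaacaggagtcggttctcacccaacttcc
EPHB2: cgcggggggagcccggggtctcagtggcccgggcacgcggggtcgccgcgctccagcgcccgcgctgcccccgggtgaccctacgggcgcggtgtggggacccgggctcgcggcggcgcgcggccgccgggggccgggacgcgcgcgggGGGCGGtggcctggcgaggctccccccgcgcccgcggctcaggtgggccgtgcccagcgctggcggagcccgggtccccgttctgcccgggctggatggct
Each window holds 1 GC box and none of the other motifs, with 15 CpG in EPHA2 and 42 in EPHB2. Over the first listed promoter window of all 10 members, 9 hold a GC box, 6 a CCAAT, 1 a TATAAA and 0 a TGANTCA. The shares over all windows are 42.6%, 32.0%, 10.7% and 6.57% in the same order. Of the 10 members, 8 have more CpG than the median window.

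The EPHA2 probe read 4.38, 3.59 and 4.05 in HA22T siControl and 3.76, 3.46 and 3.68 in HA22T siGALNT1. In PLC5 it read 1.13, 0.50 and 0.91 with siControl and 0.94, 0.49 and 0.33 with siGALNT1. Every HA22T array lies above every PLC5 array. HA22T exceeded PLC5 by 3.10 on the log2 scale (SE 0.20), or 8.60-fold (95% interval 6.31 to 11.7), with an adjusted p of 4.7e-07 in limma and p = 0.00216 in a two-sided exact permutation test over 6 against 6 arrays, the smallest it can give. Only 1.32% of the 39100 probes counted in this contrast were higher in HA22T by as much. Against the PLC5 pair of the same slide the difference was 2.79 (adjusted p = 0.00111). The knockdown differences were -0.38 in HA22T (SE 0.29) and -0.27 in PLC5 (SE 0.29, 95% interval -0.90 to 0.37), and the siRNA groups overlap in both lines.

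EPHB2, a B-type receptor that guides cell position in the intestinal crypt, was the other member to pass. Its brightest probe read -0.98, -1.60 and -1.22 in HA22T siControl and -1.23, -1.25 and -1.24 in HA22T siGALNT1. In PLC5 it read -2.39, -1.71 and -1.95 with siControl and -2.06, -1.82 and -1.82 with siGALNT1. All HA22T arrays lie above all PLC5 arrays, with a narrow gap between the lowest of HA22T and the highest of PLC5. The difference was 0.71 on the log2 scale (SE 0.18), or 1.63-fold (95% interval 1.24 to 2.15), with an adjusted p of 0.0098 in limma and an exact permutation p of 0.00216. With siControl arrays alone it was 0.75 (adjusted p = 0.0568), and with siGALNT1 arrays alone 0.66 (adjusted p = 0.0865). On slide 1 alone it was 0.97 (adjusted p = 0.0475). Of the other EPHB2 probes, one was well above background on 3 of 6 arrays in each line, lost 1 PLC5 siControl array to a flag, and differed by 0.76 (adjusted p = 0.102). The other was above background on 2 HA22T arrays and 0 PLC5 arrays, so no fold is given for it. Knockdown differences of the brightest probe were 0.025 in HA22T and 0.12 in PLC5.

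These 2 genes, both higher in HA22T, are 33.3% of the 6 members compared between the lines. Of all counted probes 36.7% differed between the lines at an adjusted p below 0.05, 18.1% as higher and 18.5% as lower in HA22T, so the share among the members is near that of any probe. The median line difference of the 6 members was 0.40 on the log2 scale, and that of all counted probes was 0.095.

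EPHA4, a receptor that binds both ephrin classes, was dim and even. The HA22T arrays lay between -3.52 and -2.78, with a median of -3.32, and the PLC5 arrays between -3.77 and -3.14, with a median of -3.44. The lines overlap and differed by 0.18 (SE 0.20, adjusted p = 0.517), and the knockdown differences were 0.023 in HA22T and 0.12 in PLC5 (95% interval -0.50 to 0.73).

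EPHB3, another B-type receptor, read -0.38, 0.39 and 0.51 in HA22T siControl and 0.26 on the single HA22T siGALNT1 array that was not flagged. In PLC5 it read -0.13, 0.58 and 0.59 with siControl and -0.04, -0.05 and 0.84 with siGALNT1. The 3 groups with 3 values each are spread and overlap, and the single HA22T siGALNT1 value lies within their range. The line difference of -0.079 rests on 4 HA22T arrays (adjusted p = 0.874), and it turned to 0.30 on slide 1 alone. The knockdown difference in PLC5 was -0.098 (95% interval -0.95 to 0.75).

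EFNB2 encodes ephrin B2, the transmembrane ligand of EPHB4. Its probe read -2.39, -2.30 and -1.62 in HA22T siControl and -3.18 and -1.46 on the 2 HA22T siGALNT1 arrays with a value. In PLC5 it read -2.23, -2.01 and -3.29 with siControl and -3.43, -2.82 and -3.21 with siGALNT1. The lines overlap. The 2 HA22T siGALNT1 values lie far apart, one below and one above all the HA22T controls, and PLC5 siControl holds an array well below the other 2. HA22T exceeded PLC5 by 0.62 (SE 0.36, 95% interval -0.18 to 1.43, adjusted p = 0.211), without HA22T siGALNT1 replicate 1. Leaving out HA22T siGALNT1 replicate 2 as well raised this to 1.05 with an adjusted p of 0.0387, and leaving out replicate 3 instead lowered it to 0.19. In PLC5 the knockdown difference was -0.64 (SE 0.48, 95% interval -1.72 to 0.43), with -1.20 for the pair on slide 1 and -0.36 on slide 2. In HA22T it was -0.21 on the remaining arrays, and 0.02 when the flagged spot was kept. It rests on the array chosen, as it was 0.65 without siGALNT1 replicate 2 and -1.07 without replicate 3.

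**Figure D2:**
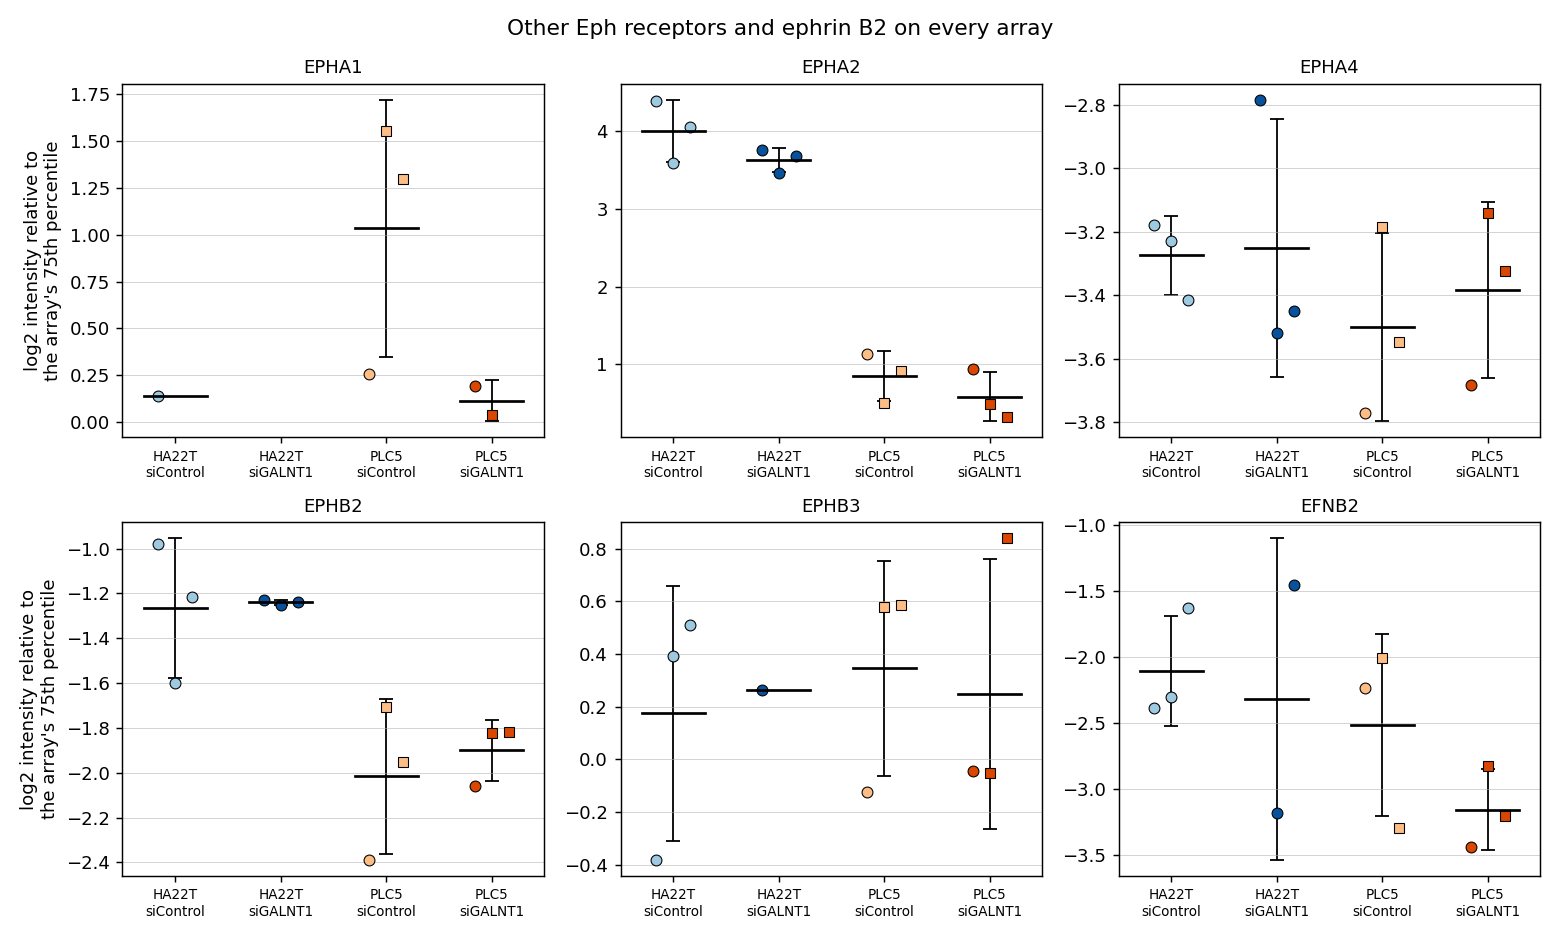
Values of EPHA1, EPHA2, EPHA4, EPHB2, EPHB3 and EFNB2 on every array with an unflagged spot, as log2 intensity minus that array's 75th percentile. Circles are arrays of slide 1 and squares of slide 2, lines are group means and bars their SD where a group has more than 1 value, and each panel has its own scale. EPHA2 and EPHB2 separate the lines, while EPHA4, EPHB3 and EFNB2 overlap.

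EPHA1 had an unflagged spot on 1 HA22T array, siControl replicate 1, where it read 0.14. In PLC5 it read 0.26, 1.55 and 1.30 with siControl and 0.19 and 0.04 on 2 siGALNT1 arrays. Both unflagged siGALNT1 values lie below the control values, with a mean difference of -0.92 (SE 0.46, 95% interval -2.04 to 0.20). The adjusted p was 1.00 in limma and the two-sided exact permutation p was 0.2, and the pair on slide 1 differed by only -0.066. With flagged spots kept, EPHA1 was well above background on all 6 arrays of each line, and the differences were 0.59 for the HA22T knockdown, -0.44 for the PLC5 knockdown and 0.64 between the lines (adjusted p = 0.324). The flagged PLC5 siGALNT1 replicate 3 then read 1.57, above every PLC5 control value, so the siRNA groups of PLC5 overlap.

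EPHA3, EPHB1 and EPHB6 gave no fold change, since their spots were at or near background. EPHB6, a receptor without kinase activity, lay between -8.42 and -6.34 in HA22T and between -8.14 and -5.79 in PLC5. EPHB1, a B-type receptor, lay between -7.76 and -6.28 in HA22T and between -6.75 and -5.37 in PLC5, where 1 siGALNT1 array was flagged. EPHA3, an A-type receptor, was well above background on a single array, HA22T siControl replicate 3, at -3.70, while the other 5 HA22T arrays ranged from -8.08 to -5.90. Its second probe was not well above background on any array and read -6.78 on that array.

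**Figure D3:**
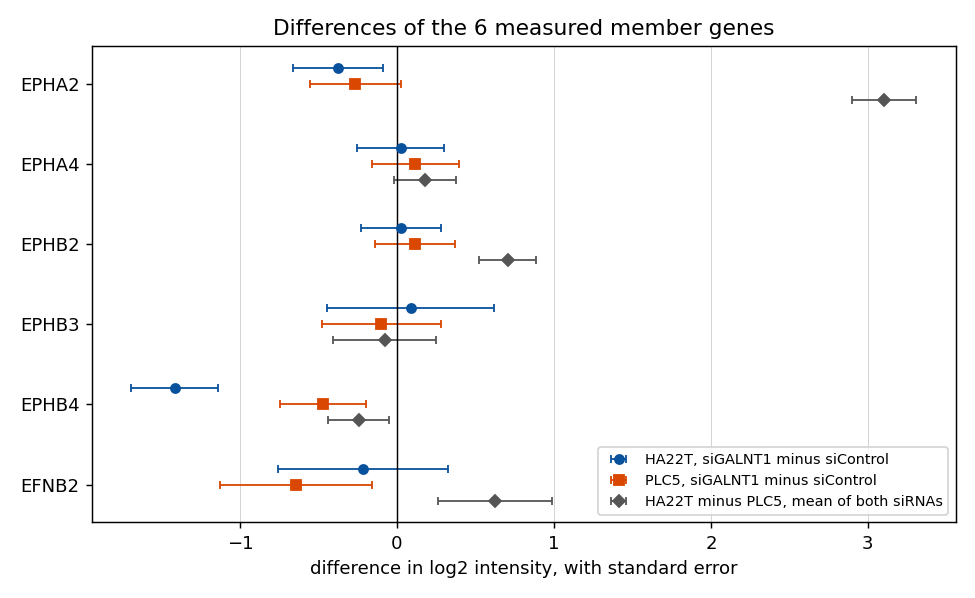
Differences of the 6 members compared, on the log2 scale with the standard error of the fit, for the knockdown in HA22T, the knockdown in PLC5 and HA22T minus PLC5 averaged over both siRNAs. EPHB4 has the largest knockdown difference in HA22T (-1.42), EPHA2 the largest line difference (3.10), and the PLC5 knockdown differences lie between -0.64 and 0.12.

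Of the remaining receptors and ligands of the system, 12 genes were listed and 10 could be compared between the lines. At an adjusted p below 0.05, 1 was higher and 4 were lower in HA22T, or 50% of the 10, beside 18.1% higher and 18.5% lower of all counted probes. Their median difference was -0.21, and 0 of 9 passed in PLC5 after knockdown. EPHA7, an A-type receptor, differed by -2.71 (SE 0.27, adjusted p = 1.35e-05) on its brighter probe, with values of -6.12 to -4.20 in HA22T and -2.69 to -2.02 in PLC5. Its dimmer second probe, well above background on 2 HA22T and 4 PLC5 arrays, differed by only -0.47 (adjusted p = 0.45), and the lines overlap for it. EFNA2, a lipid-anchored ligand of A-type receptors, differed by -2.15 (SE 0.18, adjusted p = 3.19e-06), and EFNA3, another such ligand, by -1.24 (SE 0.28, adjusted p = 0.00517). The 6 arrays of each line do not overlap for the brighter EPHA7 probe, EFNA2 and EFNA3, nor for the probes by which EPHA6 and EPHA10 were compared. The share of all counted probes without such overlap was not computed. On slide 1 alone the differences of EPHA7, EFNA2 and EFNA3 were -2.89, -2.51 and -1.06. EPHA6, an A-type receptor, differed by -0.86 (adjusted p = 0.0139) on its brighter probe. Its dimmer second probe, well above background on 3 HA22T and 2 PLC5 arrays, went the other way at 1.13 (adjusted p = 0.0525). EPHA10, a receptor without an active kinase, differed by 0.56 (adjusted p = 0.0255) on the one probe that could be compared, and by 0.19 (adjusted p = 0.623) in the mean over its probes. Of its other probes, one was well above background on 2 arrays of each line and one had no value in HA22T. Its adjusted p rose to between 0.0573 and 0.0629 when any of 5 arrays was left out (HA22T siControl replicates 2 and 3, PLC5 siControl replicates 1 and 3 and PLC5 siGALNT1 replicate 2). Blocking on the slide, 2 of these 5 genes passed, EPHA7 and EFNA2, while the adjusted p was 0.0845 for EFNA3, 0.102 for EPHA6 and 0.112 for EPHA10. EFNB1, the other broadly expressed B-type ligand, had no value in some group because of flags.

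Adaptors, effectors and sheddases that act with Eph receptors were described as a group of 39 genes, all of them compared. Between the lines 8 were higher and 8 lower in HA22T, or 41.0%, beside 36.7% of all counted probes, and the median difference was 0.047. TIAM1, a Rac exchange factor that binds ephrins and Eph receptors, and VAV3, an exchange factor recruited by activated receptors, were not well above background on any HA22T array but were on all 6 PLC5 arrays. Set against the dimmest well-measured signal of each HA22T array, they were at least 6.57-fold and 6.85-fold lower in HA22T with the background correction of the main analysis. The adjusted p values of 2.33e-06 and 7.31e-07 come from the fit on their background-level spots. With normexp background correction their differences were smaller, at -2.22 and -1.88 on the log2 scale. PTPN13, a phosphatase that binds B-type ephrins, differed by -3.72 (adjusted p = 4.93e-08), with 3 of its 6 HA22T arrays well above background, and by -2.17 with normexp background correction. In the other direction FYN, a Src-family kinase, was higher by 2.54 (adjusted p = 5.5e-06) and CHN1, a Rac GTPase-activating protein that acts below EPHA4, by 2.40 (adjusted p = 7.51e-05). CHN1 was well above background on 4 of its 6 PLC5 arrays, and its smallest difference under the alternatives listed below was 1.64. The lines do not overlap for any of these 5 genes, which were picked for their large line differences, so the separation largely follows from that choice. Other genes of the 39 do not overlap either, and the share over all counted probes was not computed.

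After knockdown, 0 of the 39 passed in PLC5 in limma, with 0 at an unadjusted p of 0.05, beside 0% and 1.33% of all counted probes, and their median difference was 0.072. In HA22T, where values are again a description, the 37 counted genes ranged from -0.66 for PTPN13 to 1.20 for SLA, with a median of -0.19 beside -0.061 over all counted probes. SLA, a Src-like adaptor, read -0.89 ± 0.62 with siControl and 0.31 ± 0.06 with siGALNT1 (SD, n = 2 each after flags). PTPN13 read -5.15 ± 0.25 and -5.81 ± 0.40 (SD, n = 3), with 3 of its 6 HA22T arrays well above background. Both were named after their values were seen, as the extremes of the group.

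**Figure D4:**
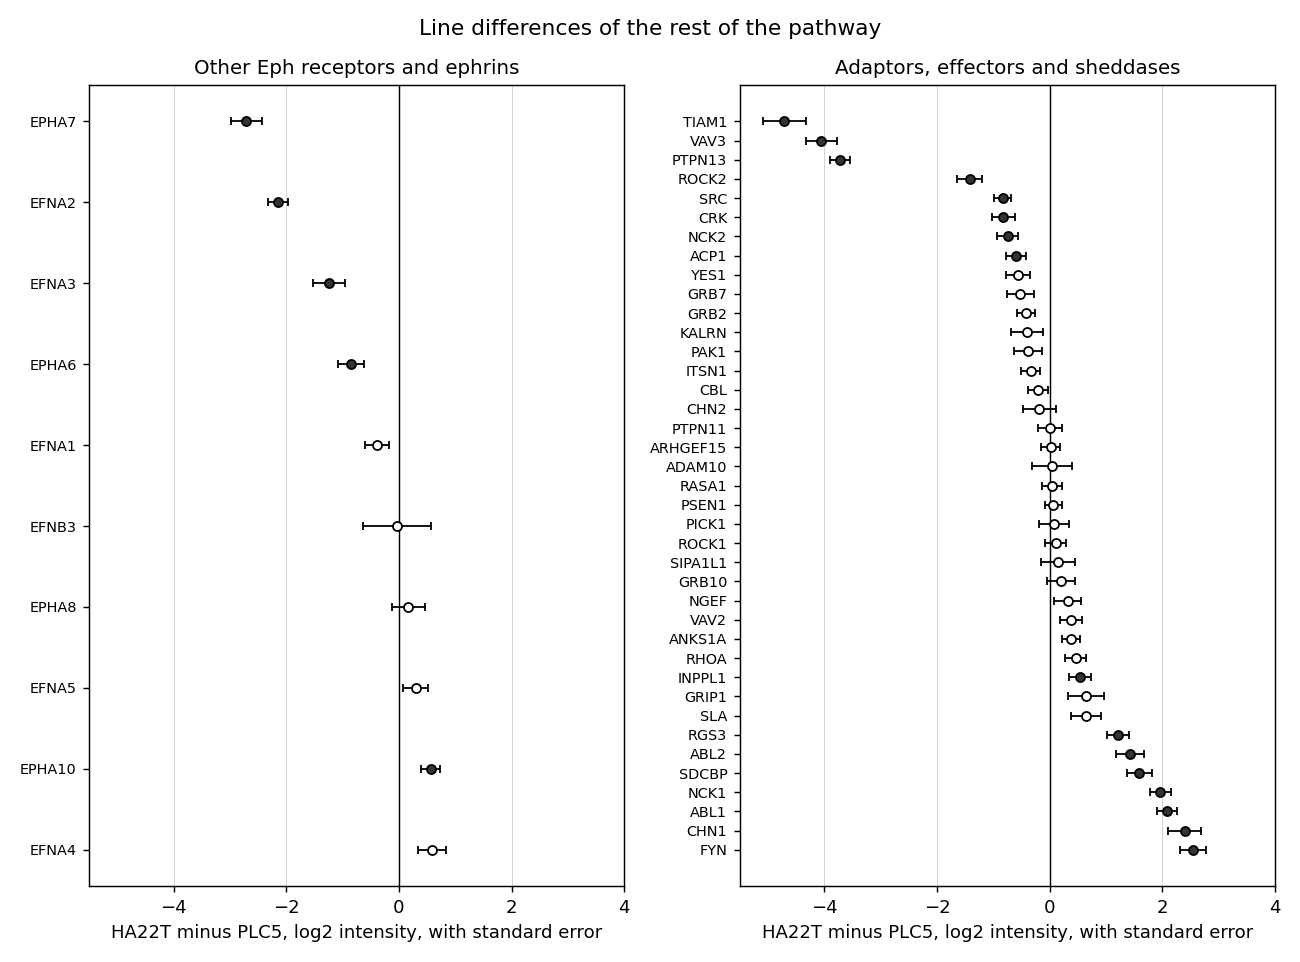
Difference between HA22T and PLC5, averaged over both siRNAs, for the other Eph receptors and ephrins (left) and for adaptors, effectors and sheddases (right), on the log2 scale with the standard error of the fit. Filled points have an adjusted p below 0.05 and open points do not. TIAM1, VAV3 and PTPN13 lie farthest below 0 and FYN and CHN1 farthest above it, and the points of TIAM1 and VAV3 rest on background-level spots in HA22T.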

How the data were processed

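RNA of 12 samples, 3 per group, was hybridized to SurePrint G3 arrays of Agilent with 1 color, and the labels do not say whether replicates came from separate cultures, so p-values measure the spread between these arrays. The authors scanned the arrays and processed them with Agilent Feature Extraction 10.5.1.1. The deposited intensity values hold a processed signal, with background subtracted by the software, besides the median spot and background brightness and quality flags. A second deposited table of log2 values served as an alternative. Its 75th percentiles lie at about 0, but how it was scaled is not stated.

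Log2 of the processed signal minus the 75th percentile of each array was computed over the non-control spots. Non-uniform spots were then left out, as the methods state, and spots of a probe were averaged. Of 50599 probes, 28174 were named through their RefSeq transcripts in GRCh38.p14, and no array coordinates were used. The 4 groups were fitted in limma 3.58.1 (R 4.3.3) without covariates. A probe was counted in a line when 3 or more of its 6 arrays flagged it as well above background (in either line for the line comparison), and Benjamini-Hochberg adjustment with a threshold of 0.05 was applied within counted probes. The line comparison averages both siRNAs with equal weight, which makes it uncorrelated with the HA22T knockdown where both HA22T groups have equal numbers and spread. For EPHB3 and EFNB2, with flagged HA22T siGALNT1 arrays, the numbers differ, and for EPHB4 the spreads do. Each gene was represented by the brightest of the probes that had a value in every group. A fold for a probe at background in one line is a lower limit, taken against the dimmest well-measured signal of each array, and it depends on the background correction. The number of arrays limits the precision, and the fit was tested on simulated data.

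The members, the gene lists and the rules for naming genes were chosen with earlier results of these data known. Outside the members, the genes named are receptors and ligands with an adjusted p below 0.05 between the lines, the 5 effectors with the largest line difference among those called, the genes most like EPHB4 (5, of which 1 is not reported here), the markers and GALNT1. In HA22T same-numbered siControl and siGALNT1 arrays deviated together, with correlations of 0.526, 0.264 and 0.338, so their numbers were taken as pairs on the basis of the values. In PLC5 they were not, since the correlation of replicate 2 was 5.76e-05. The main fit used no pairs in either line, and the replicate number entered only as a block among the alternatives. The alternatives were normexp (offset 50) on the median spot brightness, quantile normalization, median scaling, the deposited table, other filters, flagged spots kept, an intensity trend, each line alone, the methods' test (Student's, since several are listed without saying which was used on arrays), the slide or replicate as a block, a mean over probes, and single arrays left out. A 75th percentile over unflagged spots was added after seeing the data.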

Additional observations from a re-analysis of the deposited data

How the results depend on the processing

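The EPHB4 difference in HA22T kept its direction under every alternative, from -1.48 (median scaling) to -1.27 (normexp), and from -1.64 to -1.14 with each array left out. In PLC5 it ranged from -0.49 to -0.40, and from -0.56 to -0.37 with each array left out, and never passed. No member was called in PLC5 under any alternative, with 0 called each time in limma, and normexp raised the calls over all probes of PLC5 from 0 to 2. Between the lines 2 members were called under most alternatives, and 1 with siControl arrays only or with siGALNT1 arrays only. Leaving out each array gave 2 to 3, the 3 being reached without HA22T siGALNT1 replicate 2.

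Blocking on the replicate number within each line, HA22T minus PLC5 still had 2 members called and PLC5 0, and the EPHB4 difference in HA22T was again -1.42. No call changed among the members, the 5 called receptors and ligands and the 5 effectors named for their line difference. The other listed genes were followed only by their counts. The 5 calls among the other receptors and ligands fell to 3 with normexp, 2 with the slide as a block, 3 with the mean over probes, 2 with siControl arrays, 3 with siGALNT1 arrays and 2 within slide 1, and were 4 to 6 with each array left out. Their highest count under another alternative was 6. The 16 calls among adaptors and effectors fell to 9 within slide 1, reached at most 20 under another alternative and were 14 to 17 with each array left out. Over all probes the 14337 calls fell to 8939 with siControl arrays, 8984 with siGALNT1 arrays and 7145 within slide 1, where fewer arrays are fitted. They reached at most 16165 under another alternative.

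Several directions turned. EPHA6, called at -0.86, became 0.13 with the mean over its probes, of which the second was near background. EPHB3 between the lines became 0.30 with the slide as a block and within slide 1, 0.20 with the replicate block, 0.014 with siGALNT1 arrays and 0.095 with the percentile over unflagged spots, and lay between -0.20 and 0.069 with each array left out. With each array left out the PLC5 knockdown difference lay between -0.39 and 0.052 for EPHB3, between -0.017 and 0.28 for EPHA4 and between -0.070 and 0.27 for EPHB2. In HA22T the knockdown difference then lay between -1.07 and 0.65 for EFNB2, -0.21 and 0.16 for EPHA4, -0.19 and 0.26 for EPHB3 and -0.14 and 0.17 for EPHB2, and under the other alternatives between -0.36 and 0.12, -0.038 and 0.15, -0.040 and 0.64, and -0.036 and 0.32. The cause was not tested. The line difference of EPHA7 became -1.59 with the mean over probes, and normexp gave -2.17 for PTPN13, -2.22 for TIAM1 and -1.88 for VAV3. EPHB4 between the lines became 0.23 with siControl arrays, and 0.077 for the dimmer probe. Signals near background limit EPHA3, EPHB1 and EPHB6, and flagged spots limit EPHA1, EPHB3 and EFNB2.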
